A study of Mus musculus with 2 samples.

Results

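Open chromatin was examined around 8 genes that control which globin genes red cells express: Bcl11a, Zbtb7a, Sox6, Myb, Nfia, Nfix, Lin28b and Hic2. They are 8 of 21829 protein-coding genes of the GENCODE mouse annotation, and were chosen by name for their role, with earlier results of these data known. All accessible regions that overlapped a gene body or the 100 kb on either side of it were taken, which gave 70 of 20080 regions in the stricter list of peaks that both libraries share. The assay was ATAC-seq, where an enzyme inserts sequencing tags into DNA that nucleosomes leave free, run on 2 libraries of 50000 cells each, labelled biological replicates 1 and 2. The cells were G1E-ER4, a mouse erythroid line derived from Gata1-null embryonic stem cells, in which a fusion of GATA1 to the ligand-binding part of the estrogen receptor restores GATA1 activity, and both libraries come from cells given 17Beta-estradiol at 10 nM over 24 h. The line is recorded as male, C57BL/6J and postnatal, and both libraries carry the restored GATA1 and the estradiol. No untreated or Gata1-null library was analysed here, so the values describe 1 state of 1 cultured line, the labels do not say whether the replicates came from separate cultures, and no change on GATA1 activation can be read from them.

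Red cells of vertebrates switch from embryonic and fetal to adult globin genes during development. BCL11A and ZBTB7A (also called LRF) are zinc finger repressors that silence the fetal genes, largely through the NuRD complex, and SOX6 silences embryonic globin genes together with BCL11A. MYB keeps erythroid progenitors dividing and is reached by enhancers in the stretch between it and its neighbour Hbs1l. NFIA and NFIX are nuclear factor I proteins that act in erythroid differentiation and fetal globin silencing, LIN28B is a fetal RNA-binding protein that blocks let-7 and lowers BCL11A, and HIC2 is a repressor of BCL11A. Mice have no separate fetal globin genes, so these factors act there on embryonic against adult globin genes.

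The sequences on which the description turns are printed on the forward strand of GRCm38.p6, as windows reaching 100 bases to each side of the region's summit and named by the distance of the summit from the gene's first coding start (negative is upstream). The first 3 come from the Bcl11a introns, where the erythroid enhancer of this gene is known to lie, and are chr11:24100517-24100717, chr11:24129859-24130059 and chr11:24148639-24148839. Capitals mark GATA words, meaning GATA with A or T before it and A or G after it on either strand, so that a capital run ending in ATCT or ATCA is a match on the reverse strand.
Bcl11a +22.6 kb: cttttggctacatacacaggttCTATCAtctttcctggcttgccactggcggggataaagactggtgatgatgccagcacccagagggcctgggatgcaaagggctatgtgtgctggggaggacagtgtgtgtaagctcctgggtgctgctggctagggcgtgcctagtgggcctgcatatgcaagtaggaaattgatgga
Bcl11a +51.9 kb: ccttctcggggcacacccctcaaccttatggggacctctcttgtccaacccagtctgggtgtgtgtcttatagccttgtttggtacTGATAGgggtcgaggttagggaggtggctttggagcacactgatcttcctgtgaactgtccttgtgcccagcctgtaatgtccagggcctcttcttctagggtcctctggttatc
Bcl11a +70.7 kb: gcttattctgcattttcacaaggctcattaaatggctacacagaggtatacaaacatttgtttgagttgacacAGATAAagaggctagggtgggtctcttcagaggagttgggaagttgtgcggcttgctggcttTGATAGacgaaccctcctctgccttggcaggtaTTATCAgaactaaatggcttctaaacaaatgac

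The next 4 come from the stretch between Myb and Hbs1l, shown because all its distal regions in the stricter list hold a GATA word. They are chr10:21189072-21189272, chr10:21196695-21196895, chr10:21228582-21228782 and chr10:21268878-21269078, with the same words in capitals. Of all distal regions in the stricter list, 50.9% hold such a word.
Myb -28.2 kb: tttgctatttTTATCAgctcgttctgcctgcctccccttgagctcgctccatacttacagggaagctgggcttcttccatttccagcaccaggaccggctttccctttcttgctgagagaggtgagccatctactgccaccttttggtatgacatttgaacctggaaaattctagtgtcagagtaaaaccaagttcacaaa
Myb -35.8 kb: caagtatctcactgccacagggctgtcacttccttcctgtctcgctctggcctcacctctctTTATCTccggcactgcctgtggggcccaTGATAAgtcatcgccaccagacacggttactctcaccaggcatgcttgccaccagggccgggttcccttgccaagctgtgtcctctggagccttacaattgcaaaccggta
Myb -67.7 kb: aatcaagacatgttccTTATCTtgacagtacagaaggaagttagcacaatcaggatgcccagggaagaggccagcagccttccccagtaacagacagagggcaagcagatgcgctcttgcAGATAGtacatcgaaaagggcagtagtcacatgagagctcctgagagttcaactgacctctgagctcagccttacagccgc
Myb -108.0 kb: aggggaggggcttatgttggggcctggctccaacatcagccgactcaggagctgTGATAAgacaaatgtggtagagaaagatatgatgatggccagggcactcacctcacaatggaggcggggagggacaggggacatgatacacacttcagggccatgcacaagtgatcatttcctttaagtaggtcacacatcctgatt

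The strongest distal windows of Sox6 and Hic2 follow for contrast, chosen after their values were seen: chr7:115904372-115904572, which holds a GATA word, and chr16:17222305-17222505, which holds none. The last sequence is the RefSeq promoter of Hic2, chr16:17233337-17233636, the one in that table that a member's own promoter region of the conservative list overlaps; its capitals mark a CACCC word, here CCCCGCCC, the kind of word that KLF proteins bind.
Sox6 +134.3 kb: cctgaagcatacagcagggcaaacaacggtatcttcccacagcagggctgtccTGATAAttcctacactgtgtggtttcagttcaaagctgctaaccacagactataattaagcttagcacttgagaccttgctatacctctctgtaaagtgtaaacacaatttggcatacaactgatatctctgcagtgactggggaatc
Hic2 -11.2 kb: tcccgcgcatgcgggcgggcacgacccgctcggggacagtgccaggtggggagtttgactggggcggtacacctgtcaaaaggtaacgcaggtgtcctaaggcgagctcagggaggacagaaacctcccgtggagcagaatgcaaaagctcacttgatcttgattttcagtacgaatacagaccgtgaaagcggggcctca
Hic2 promoter: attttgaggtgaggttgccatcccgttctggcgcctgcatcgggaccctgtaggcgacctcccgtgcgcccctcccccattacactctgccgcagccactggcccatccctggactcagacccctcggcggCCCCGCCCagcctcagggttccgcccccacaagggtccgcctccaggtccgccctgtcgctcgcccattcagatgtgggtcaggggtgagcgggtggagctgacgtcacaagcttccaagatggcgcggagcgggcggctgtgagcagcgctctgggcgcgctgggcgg

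The stricter list, called conservative by its makers, holds peaks at or below an irreproducible discovery rate (IDR, the estimated share of peaks at that rank or better that would not recur) of 0.05 between the libraries. Overlapping peaks were joined into regions. The looser replicated list held 46345 regions, and the 2 libraries' own IDR lists held 14012 (replicate 1) and 15564 (replicate 2). A region was called a promoter region where its summit lay within 1 kb of the start of a protein-coding transcript, and distal otherwise. The number of reads behind the peaks is unknown, and the strength of a region is given as the authors' signal value, an enrichment at the peak whose scaling no source used here states. In the conservative list, of 12 erythroid marker genes 11 had a promoter region (Alas2, the erythroid heme synthesis enzyme, had none), against 2 of 5 megakaryocyte, 0 of 6 myeloid, 0 of 3 mast cell, 0 of 5 lymphoid and 0 of 4 liver markers. The share of all protein-coding genes was 41.9%. In the lists of replicates 1 and 2 alone, 9 and 10 of the erythroid markers had one, and 1 and 2 of the megakaryocyte markers. In the replicated list all 12 erythroid markers had one, Alas2 included, and so did 2 megakaryocyte and 2 myeloid markers. 

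The 70 regions were 34 promoter and 36 distal regions, and only 6 of the promoter regions belonged to the 8 genes themselves. Bcl11a, Zbtb7a, Nfia and Hic2 had a promoter region of their own, and Myb, Sox6, Nfix and Lin28b had none. These 4 of 8 stand beside 41.9% of all protein-coding genes. The same 4 genes had one in the list of replicate 1 alone, where the share of all genes was 38.5%, and in that of replicate 2 alone, where it was 39.6%. In the looser replicated list, with 46.5% of all genes, Myb and Sox6 joined them. In the pseudoreplicated list of replicate 1, made from random splits of that library's reads (44.7% of genes), 7 members had one, all but Nfix, and in that of replicate 2 (45.2% of genes) 6 had one, all but Myb and Nfix. An archived list of 157788 regions (54.1% of genes) held one for all 8. Lin28b thus had one in the 2 pseudoreplicated lists of 31850 and 35591 regions and none in the longer replicated list.

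**Figure D1:**
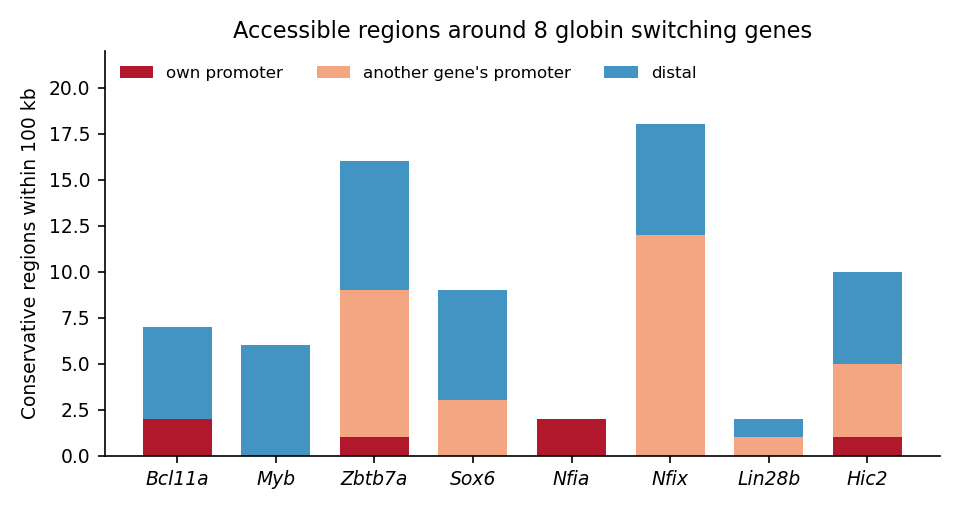
Accessible regions within 100 kb of each gene body in the conservative list (y axis, number of regions), stacked by class: the gene's own promoter, the promoter of another gene, and distal. Bcl11a, Zbtb7a, Nfia and Hic2 carry own promoter regions, Zbtb7a and Nfix have the most regions through 8 and 12 promoter regions of other genes, and Nfia has its 2 promoter regions alone.

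In the conservative list the distal counts of 6 of the 8 members lay high in the distribution over all genes, and those of Nfia and Lin28b did not. The members had a median of 5.5 distal regions against 1 over all protein-coding genes, and 7 of 8 had at least 1, beside 63.3% of all genes. Zbtb7a had 7, Myb, Sox6 and Nfix 6 each, Bcl11a and Hic2 5 each, Lin28b 1 and Nfia 0. On the scale of all genes these counts sit at the percentiles 95.4 for Zbtb7a, 92.4 for the 3 genes with 6, 88.1 for the 2 genes with 5, 45.7 for Lin28b and 18.3 for Nfia. Long genes have wide windows: per 100 kb of window the members' median was 1.84 against 0.478 over all genes, and Sox6, whose body spans 567.9 kb, fell to the percentile 58.0. In the lists of single libraries the members had 18 (replicate 1) and 22 (replicate 2) distal regions in all. There Lin28b had 2 in each library, as many as Bcl11a, at the percentiles 78.9 and 74.1. Of the 36, 13 lay inside the body of the member itself, and for 15 the nearest coding start was that of the member (6 of 6 for Sox6, 4 of 5 for Bcl11a, 3 of 5 for Hic2, 2 of 6 for Myb and none for Zbtb7a, Nfix and Lin28b). With the starts of noncoding transcripts counted too, 4 of the 36 became promoter regions, 1 each near Bcl11a, Myb, Sox6 and Nfix, and the Sox6 one lay 466 bp from a noncoding start of Sox6 itself, which makes 5 of 8 members with a region at a start of their own.

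**Figure D2:**
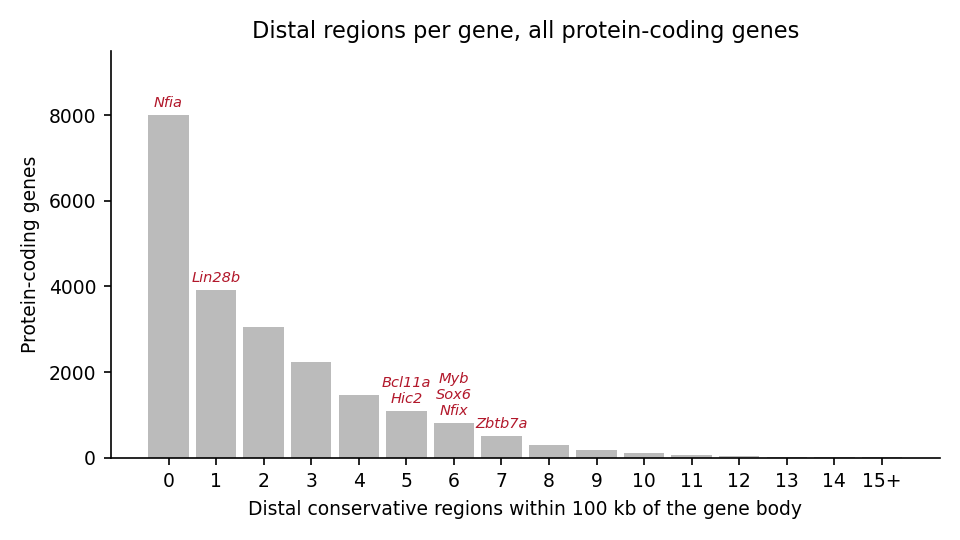
Number of protein-coding genes (y axis) by the number of distal conservative regions within 100 kb of the gene body (x axis, last bar 15 or more), with the 8 members written above their bars. Nfia and Lin28b stand in the tall bars at 0 and 1, and the other 6 stand at 5 to 7.

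Bcl11a, the main fetal globin repressor, lies at chr11:24078056-24174123 on the forward strand. Its promoter was open but weakly so. A region at chr11:24077877-24078131, with its summit at -50 bp from the first start, had a signal of 7.31, at the percentile 13.0 of all promoter regions, and a -log10 p of 23.1 in replicate 1 and 29.6 in replicate 2. A smaller region with its summit at -530 bp had a signal of 4.62, with 15.5 in replicate 1 and 11.3 in replicate 2, and only the list of replicate 1 held it. Both stood below the median signal of the list, so Bcl11a has no promoter region where regions under that median are left out. The one distal region outside the introns, at -1.596 kb, was weak (4.28), at -99 bp from the start of the noncoding transcript Gm12063, and in neither library's own list. In its window 9 of 171 words of 31 bases occur elsewhere in the assembly.

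All 4 regions in the Bcl11a introns lay in intron 2 of the longest transcript, between exons 2 and 3, and the strongest exceeded the promoter. The region at +16.2 kb had a signal of 13.5, at the percentile 85.2 of distal regions, and -log10 p values of 30.8 in replicate 1 and 28.5 in replicate 2. The region at +51.9 kb (chr11:24129528-24130634) was lower in signal, 9.14, but was the widest at 1107 bp, and its -log10 p values of 35.3 and 35.9 were the highest of the 4. Both libraries' own lists held these 2 regions. The regions at +70.7 kb (chr11:24148568-24149056, signal 8.43, -log10 p 11.5 and 14.0) and at +22.6 kb (chr11:24100470-24100996, signal 5.38, -log10 p 8.29 and 9.84) were in neither of them. By -log10 p the libraries thus showed the same order, with +51.9 and +16.2 kb well above the others. By signal +16.2 kb led in both, with 11.2 in replicate 1 and 10.7 in replicate 2. The signals at +51.9 and +70.7 kb were 8.83 and 6.16 in replicate 1, and 8.15 and 7.38 in replicate 2. Only in replicate 2 did +51.9 kb stand nearer to +70.7 kb than to +16.2 kb.

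The looser replicated list held 12 regions in the Bcl11a introns, 8 of them absent from the conservative list. Their signals ran from 3.36 to 5.17 and their IDR between the libraries from 0.0523 to 0.513. The region at +58.2 kb (chr11:24136095-24136650) was among them, with a signal of 4.79, a -log10 p of 11.9 in replicate 1 and 5.40 in replicate 2, and an IDR of 0.323. The IDR list made from pooled pseudoreplicates, random splits of the joined reads, held it too, which made 5 intron regions there. Another, at +2.12 kb in intron 1, was the one replicated region near the second Bcl11a start, where the promoter recorded in RefSeq lies, and its signal was 3.91. Its summit lay at -496 bp from a Bcl11a coding start, so by the rule used here it is a promoter region and not a distal one.

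**Figure D3:**
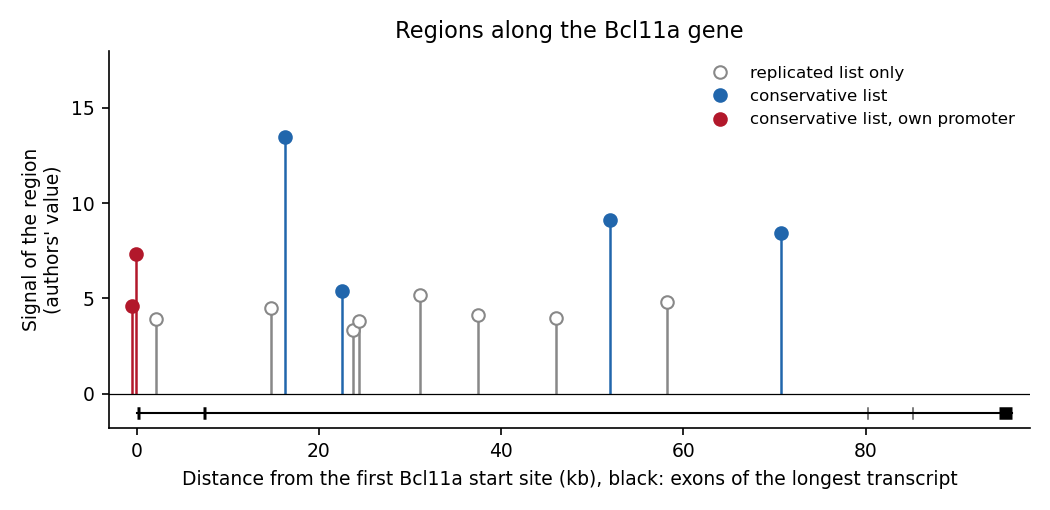
Signal of each region (y axis, authors' value) along Bcl11a (x axis, kb from the first start), with filled blue points for the conservative list, red for its promoter regions and open grey for regions of the replicated list alone. The 4 blue points at 16.2, 22.6, 51.9 and 70.7 kb lie between exons 2 and 3, and no open point exceeds 5.17.

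The 3 printed Bcl11a intron windows were chosen because they hold a GATA word, so their all having one is no result. Of all distal conservative regions 50.9% hold one. The +70.7 kb window held 3 GATA words and the others 1 each. At +51.9 kb the word lay close to the summit, 9 bp before it, while at +22.6 kb it lay 73 bp away. Among the 8 regions of the replicated list alone, 5 held a GATA word, the +58.2 kb region included, beside 48.5% of all regions of the replicated list that overlap no conservative region.

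Zbtb7a, the other main repressor, lies at chr10:81135220-81152995 in a gene-dense neighbourhood, with 8 promoter regions of other genes in its window. Its own promoter region, chr10:81137229-81137974, was 746 bp wide with a signal of 11.4 and -log10 p values of 55.1 and 60.6 (each pair of -log10 p values gives replicate 1 and then replicate 2). The summit lay in intron 1, at -502 bp from one of its internal coding starts and 2.23 kb after the first, and an AGATAA word stood 75 bp from it. The Zbtb7a promoter recorded in RefSeq, chr10:81136021-81136320, lay outside this region. Over that promoter the replicated list held a region with a signal of 2.44 and an IDR of 0.513. None of the 7 distal regions of Zbtb7a lay in the gene body. The strongest were at +68.3 kb (signal 13.2, -log10 p 24.1 and 27.8) (-1.471 kb from the Nmrk2 start), at -39.7 kb (12.2, with 40.3 and 39.2), 3.37 kb from the Creb3l3 start, and at -52.5 kb (10.3, with 16.6 and 22.9). Both libraries' own lists held these 3 and neither held the other 4, whose signals ran from 5.55 to 9.497. The first 2 hold 2 and 3 GATA words.

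Sox6, the partner of BCL11A in silencing embryonic globin genes, lies at chr7:115470872-116038796 on the reverse strand. Its distal regions were all intronic: 1 in intron 1, 4 in intron 2 and 1 in intron 9 of the longest transcript. The strongest lay at +134.3 kb (chr7:115904092-115904728) with a signal of 12.4 and -log10 p values of 25.6 and 22.4. It was followed by those at +96.7 kb (11.2, with 18.3 and 17.2) and at +488.1 kb (11.1, with 14.7 and 14.97). Both libraries' lists held these 3, the list of replicate 2 alone held 2 more, and neither held the weakest, at +5.61 kb (4.85). GATA words were in 5 of the 6 windows, AGATAA in 4, and an E-box GATA composite in 2. The composite is CTG followed after 7 or 8 bases by a GATA word, as the TAL1 and GATA1 complex binds. Over all distal regions the shares with these were 50.9%, 25.5% and 11.8%, in that order. The region nearest the first start, at -1.65 kb, was a promoter region of 1110004F10Rik and reached 13.4. Its -log10 p of 17.6 in replicate 1 was below the 35.9 in replicate 2.

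Myb, the progenitor factor whose fall accompanies red cell maturation, lies at chr10:21124935-21160984 on the reverse strand. It had neither a promoter region nor any region in its body in the conservative list. The replicated list held a region over its start (chr10:21160829-21161146, signal 5.94, IDR 0.252). Its -log10 p was 10.8 in replicate 1, and the ranked list of replicate 2 held no peak there. The start is rich in CpG, with an observed to expected CpG ratio of 0.952 over the RefSeq promoter window, at the percentile 91.2 of all RefSeq promoters.

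The stretch upstream of Myb, chr10:21160985-21295978, runs 135.0 kb to the start of Hbs1l, a gene of translation quality control. It held 5 conservative regions. The farthest, -135.0 kb, was the promoter region of Hbs1l (signal 12.5, -log10 p 19.9 and 26.9). Of the 4 distal ones, -67.7 kb (chr10:21228442-21228964) was the strongest, with a signal of 13.8 and -log10 p values of 22.4 and 26.4. The region at -108.0 kb (chr10:21268754-21269173), just beyond the 100 kb window and so not among the 36, had a signal of 13.4, with 18.7 and 28.8. The region at -35.8 kb (chr10:21196598-21197186) had 11.2, with 25.6 in replicate 1 and 17.0 in replicate 2. These 3 were in both libraries' own lists. The region at -28.2 kb (chr10:21189074-21189275) was weaker, 7.66 with 11.3 and 10.7, was in neither list, and lay 10 bp from the start of the noncoding transcript Gm40608.

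**Figure D4:**
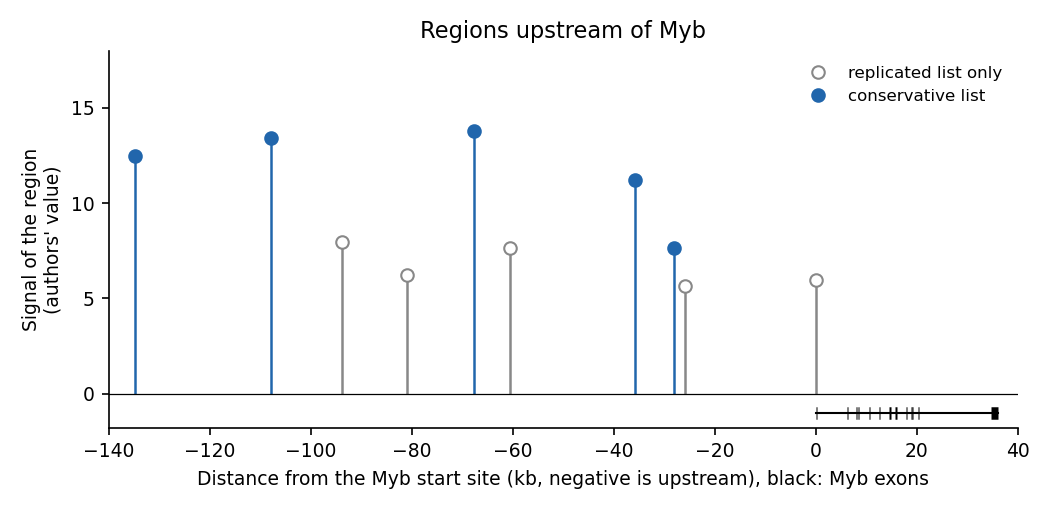
Signal of each region (y axis, authors' value) upstream of Myb (x axis, kb from its start, Hbs1l starts at -135.0 kb), filled for the conservative list and open for regions of the replicated list alone. The filled points at -67.7, -108.0, -135.0 and -35.8 kb stand above 11, and the point over the Myb start is open, at 5.94.

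The replicated list raised this count to 10 regions. The 5 it added had signals from 5.63 to 7.97 and IDR values from 0.0816 to 0.276, and 3 of them held a GATA word, beside the same 48.5%. The highest of these, at -93.8 kb, was also in the pooled pseudoreplicate list (-log10 p 7.79 in replicate 1 and 12.01 in replicate 2). In the printed windows the GATA word nearest the summit lay 5 bp before it at -35.8 kb, 20 bp after it at -67.7 kb, 41 bp before it at -108.0 kb and 85 bp before it at -28.2 kb. The windows at -35.8 and -67.7 kb each held a second word farther out. The -67.7 kb window alone of the 4 also had an E-box GATA composite, on the reverse strand, 68 bp from the summit. On the other side of Myb, 3 regions lay near Ahi1, the strongest at +106.0 kb with a signal of 10.997, a -log10 p of 15.3 in replicate 1 and 23.3 in replicate 2, and a place in the list of replicate 2 only.

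By the number of regions in their windows the nuclear factor I genes stood at opposite ends. Nfia (chr4:97772734-98118874) had the strongest own promoter of the 8 genes and nothing else within 100 kb. Its regions, at -425 bp and 656 bp from the first start, had signals of 16.4 and 12.5, with -log10 p values of 65.4 and 77.3 for the first and 38.5 and 56.5 for the second. Even the replicated list added just 2 weak regions in its body, at +150.7 kb (5.74) and +326.1 kb (5.42).

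Nfix (chr8:84699876-84800344, reverse strand) had 18 regions in its window, the most of the 8, and none at a start of its own. Promoter regions of other genes made up 12 of the 18. Its body held the promoters of Lyl1, a TAL1 relative (signal 9.36), and of G430095P16Rik (15.6). The one distal region inside it, in intron 2 at +69.4 kb (chr8:84730579-84731410), had a signal of 13.6, -log10 p values of 30.3 and 34.5, and 2 E-box GATA composites, the nearer 5 bp from the summit. A second intron region, at +62.6 kb, reached 11.8 in the replicated list but had an IDR of 0.0768 and so missed the conservative list: its -log10 p was 9.94 in replicate 1 and 20.1 in replicate 2. The strongest distal region of Nfix, upstream at -15.4 kb, had a signal of 14.4, with 19.0 and 33.6, and held no GATA word but a match to the CTCF core. After it and the intron region at +69.4 kb came the region at +136.2 kb, beyond the 3′ end, which had 9.38 and lay at -1.251 kb from the start of Ier2. Near the first Nfix start the replicated list had a single region, at +1.37 kb, with a signal of 2.87.

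Lin28b (chr10:45376620-45486395, reverse strand), the fetal factor, had no conservative region in its body or at its start. Its window held the promoter of Hace1, a ubiquitin ligase gene (17.2), and a distal region 6.34 kb after its start (chr10:45583936-45584925, 12.2, with 21.8 and 31.5). That region had an E-box GATA composite 2 bp from its summit. Within the gene, however, both libraries' own lists held a region at +70.2 kb, with a signal of 10.9 and a -log10 p of 21.8 in replicate 1 against 5.75 and 8.67 in replicate 2. Its IDR between the libraries was 0.137, outside the conservative list, while the pooled pseudoreplicate list kept it at 10.2. The upstream end of the annotated gene, -16.2 kb, had a region of 9.56 in the same list, with an IDR of 0.142. At the coding start peaks stood in the archived list and in the pseudoreplicated lists, 4.88 in replicate 1 and 3.16 in replicate 2, at positions that did not overlap.

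Hic2 (chr16:17233572-17263430), the repressor of Bcl11a, had an open promoter, chr16:17233342-17233706, with a signal of 13.2 and -log10 p values of 43.8 and 49.3. Its summit lay at -50 bp from the start. The strongest distal region of all 36 lay 11.2 kb upstream of Hic2 (chr16:17222259-17222578): 21.8, at the percentile 99.0 of distal regions, with 68.3 and 79.1. Its printed window held no GATA word, no CACCC word and no CTCF core. In that window 68 of 171 words of 31 bases occur at other places in the assembly, with up to 6 places for a word, and how far reads from such copies add to its signal was not tested. The sequence may also be part of a copy of the 28S ribosomal RNA gene, of which the genome has many copies. It was not compared with a complete ribosomal DNA sequence, so the 21.8 may not be the accessibility of this place alone. The next strongest of the 36, near Nfix, had 14.4. Among all 70 windows 7 held any such repeated word and the windows in which they made up over 10% of the words were 3. The regions at -23.4 kb (10.9, with 18.6 and 22.2) and -12.9 kb (8.38, with 15.3 and 20.6) were in the list of replicate 2 alone. Intron 1 held weaker regions at +15.8 kb (7.02) and +18.8 kb (7.20), and the second, named after its values were seen, carried 3 GATA words and 2 composites.

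The members' regions mostly had a higher -log10 p in replicate 2. Of the 70 regions 68 had a peak in both ranked lists. Among distal regions the median -log10 p was 15.3 in replicate 1 and 17.8 in replicate 2, with replicate 2 higher in 24 of 34, beside 69.1% of all distal regions. Among promoter regions it was 31.2 and 34.3, with replicate 2 higher in 28 of 34, beside 71.7% of all promoter regions. The same direction thus held over the whole list. Both libraries' own IDR lists held 16 of the 36 distal regions, beside 42.7% of all distal regions, and neither list held 14, beside 32.9%. The list of replicate 1 alone held 1 and that of replicate 2 alone held 5. The median signal of the 36 was 9.04, against 9.36 for all distal regions, and ran from 4.28 to 21.8, or to 14.4 without the region upstream of Hic2. The strength of single regions near these genes was thus close to that of distal regions in general.

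**Figure D5:**
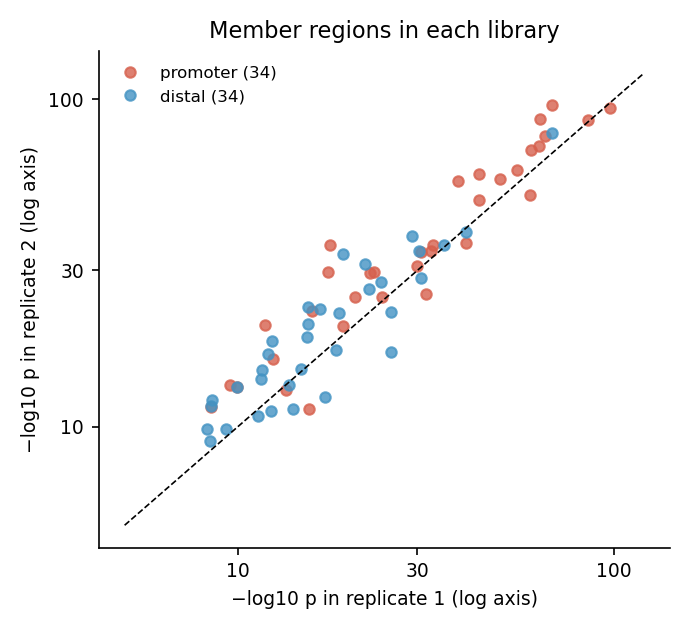
The -log10 p of each member region in replicate 1 (x axis) and replicate 2 (y axis), both on log axes, with the dashed line at equal values and promoter and distal regions in 2 colours. Of the 68 points 52 lie above the line, and the distal point far to the upper right is the region 11.2 kb upstream of Hic2, whose sequence has copies elsewhere in the assembly and may be ribosomal.

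Sequence words were then counted in the same windows around the summits. A GATA word was in 21 of the 36 distal windows (58.3%), beside 50.9% of all distal regions, and AGATAA alone was in 15 (41.7%), beside 25.5%. The members divided: 5 of 6 windows of Sox6, 4 of 5 of Bcl11a, 4 of 6 of Myb, 3 of 5 of Hic2, 3 of 7 of Zbtb7a and the 1 of Lin28b held a GATA word, against 1 of 6 of Nfix. The E-box GATA composite was in 6 windows, beside 11.8% of all distal regions. CACCC words (CCACACCC, CCACGCCC, CCCCACCC or CCCCGCCC) were in 7, beside 20.2%, and 6 of these 7 lay near Zbtb7a or Nfix. The CTCF core, added after the data were seen, was in 2 (near Zbtb7a and Nfix), beside 9.83%. The RUNX word was in 4 (11.1%), beside 21.4%, and the BCL11A word TGACCA in 4 (11.1%), beside 12.7%. Windows near one gene are few, and a match is a description of letters, not of binding. In the RefSeq promoters 29.7% of all windows of the same length hold a CACCC word, as the printed Hic2 promoter does.

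The partners through which these repressors act were mostly open at their starts. Of the 14 genes of the NuRD list, which holds the complex and Zfp410, an activator of its Chd4 gene, 12 had a promoter region, led by Gatad2b (19.8), Rbbp7 (18.2) and the deacetylase Hdac1 (17.8), and Chd3 and Mta1 had none. The median number of distal regions in this list was 5. Of 18 other fetal globin regulators 14 had one, led by the arginine methyltransferase gene Prmt5 (22.1), the maintenance DNA methyltransferase gene Dnmt1 (20.2) and Pogz (19.0), while Ehmt2, Nr2f2, Igf2bp1 and Hmga2 had none. Igf2bp1 and Hmga2 are, with Lin28b, genes of the fetal let-7 pathway, which is named as background and was not counted as a group. Igf2bp3, of the same family as Igf2bp1, went the other way. It had a promoter region (7.15), which the list of replicate 2 held and that of replicate 1 did not. Arid3a, also of this list, had a promoter region (12.4) that the lists of both libraries held. Of 11 paralogs of the 8 members 4 had one, namely Zbtb7b (18.3), Mybl2 (16.1), Mybl1 (12.9) and Nfic (8.82), and Bcl11b, Zbtb7c, Sox5, Sox13, Nfib, Hic1 and Lin28a had none. These counts in the conservative list stand beside the same 41.9% of all genes, and the gene lists were chosen with earlier results of these data known. In the lists of replicate 1, replicate 2 and the replicated list, 11, 11 and 13 NuRD genes had a promoter region. For the other regulators these counts were 11, 13 and 15, and for the paralogs 3, 4 and 4. The shares of all genes were 38.5%, 39.6% and 46.5%. Mta1 and Ehmt2 had a promoter region in the replicated list.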

How the data were processed

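ATAC-seq peak lists of the 2 libraries were analysed. The authors deposited peaks on mm10 for each library and for both together, per the deposited file lists, with an exclusion list among the inputs. The sources used here name no aligner, peak caller or version. The authors' signal values are enrichments at each peak, and their deposited -log10 p and -log10 IDR values rank the peaks. Read depth is unknown, so no counting interval was given. Overlapping peaks were joined (Python 3.11.15, pandas 2.3.3, numpy 2.4.6), the peak of largest signal giving summit and signal. Starts came from GENCODE vM21 and sequence from RefSeq GRCm38.p6. A region was called shared where it overlapped at least 50% of the shorter one. Per-library -log10 p came from each library's own ranked list, because the columns of the joint ranked list name no sample. All 32851 RefSeq promoter sequences, 8 members included, equalled the genome. The joining, promoter rule and word search were tested on simulated data. There is 1 group, hence no test between groups. Regions named are the own promoters, the conservative regions of the 2 stretches and the 3 strongest distal regions of each gene. Some further regions are named as well, including part of those in the looser lists. Members and lists were chosen with earlier results of these data known. The alternatives tried are other lists, windows, promoter rules and words. The sequence of 1 Bcl11a intron region is not reported here.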

Additional observations from a re-analysis of the deposited data

How the results depend on the processing

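With the replicated list in place of the conservative one the distal regions of the members rose from 36 to 96, the Bcl11a intron regions from 4 to 12 and the Myb upstream regions from 5 to 10. With regions under the median signal left out, 14 distal and 1 Bcl11a intron region were left. With either library's own list alone there were 18 to 22 distal regions, 2 Bcl11a intron regions and a median percentile of the members' distal counts of 78.9 to 84.95, against 90.2. Per 100 kb of window that percentile was 84.7. With the pseudoreplicated lists 34 of the 36 distal regions, in place of 16, were in both libraries. The other 27 of 40 alternatives stayed within 1.5 times the value reported or, for the percentile, moved by less than the SD between the libraries. The number of members with a promoter region ran from 3 to 6 over these alternatives, and was 6 and 7 in the pseudoreplicated lists and 8 in the archived list. No paired analysis was possible because the 2 libraries form a single group and no result comes from a test. The depth of the libraries is unknown, so a region missing from a list may be below detection.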
